A study of Homo sapiens with 8 samples.

Results

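The 39 HOX genes of the human genome, taken by their symbols in the HOXA, HOXB, HOXC and HOXD clusters with silent genes included, are described here in IMR90 fibroblasts that express an active form of YAP. They are 39 of the 54628 genes in the count table: 11 in HOXA on chromosome 7, 10 in HOXB on chromosome 17, 9 in HOXC on chromosome 12 and 9 in HOXD on chromosome 2. Of these, 18 had enough reads to be tested (9 in HOXA, 8 in HOXB and 1 in HOXC) and 21 did not, among them all of HOXD.

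HOX genes encode homeodomain transcription factors that give cells along the body axis their regional identity. Within a cluster the genes lie in the order of the regions they mark, with low paralog numbers for anterior and high numbers for posterior levels, and adult fibroblasts keep the HOX code of the site they came from. HOX proteins bind DNA together with TALE homeodomain cofactors of the PBX, MEIS and PKNOX families, Polycomb complexes keep unused HOX genes silent, and retinoic acid activates the anterior ones during development.

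Messenger RNA was sequenced from a single line, IMR90, a human lung fibroblast line that carried hTERT, the catalytic subunit of telomerase, and a pInducer20 vector in which doxycycline switches on N-terminally Flag-tagged YAP5SA. YAP is a coactivator of the TEAD transcription factors, and in YAP5SA the serines through which the Hippo kinases restrain it are replaced. There were 2 libraries in each of 4 groups: senescent cells with doxycycline, senescent cells without it, proliferating cells with doxycycline and proliferating cells without it. Senescence was induced with bleomycin, a drug that breaks DNA, at 10 ug/ml for 24 hours, and those cells were taken 9 days later. Doxycycline was given at 1 ug/ml for 11 days. All groups grew in low oxygen, and all carried hTERT and the vector. No group received doxycycline without the transgene, so the drug and YAP5SA cannot be told apart. The labels do not say that replicates came from separate cultures, so p-values measure only the spread between these libraries.

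Libraries held 33627708 to 39692162 counts, of which 7702 to 14006 fell on HOX genes. YAP1 stood at 291 and 287 CPM (counts per 1e6 counts of the library after TMM scaling) in senescent cells with doxycycline, against 190 and 223 CPM without it. Proliferating cells had 190 and 238 CPM with doxycycline, against 198 and 195 CPM without it, so these groups overlapped. Whether reads of the transgene were counted under YAP1 is not given in the sources used here. ANKRD1, a known YAP target chosen after its values were seen, stood at 851 and 822 CPM against 94.6 and 71.7 CPM in senescent cells, and at 277 and 266 CPM against 3.08 and 3.68 CPM in proliferating cells, with doxycycline first in each pair. The fibroblast label was checked against markers: all 10 fibroblast genes had reads in every library and summed to 20577 to 36757 CPM. NKX2-1 of lung epithelium and SOX10 of glia had no counts, but other markers of these and other cell types did. The 5 endothelial markers, nearly all TEK, summed to 45.8 to 155 CPM, and epithelial CDH1 had 82 reads in senescent cells with doxycycline. In bulk RNA, fewer cells that express a gene and less RNA per cell cannot be told apart.

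The cells expressed an anterior to central HOXA and HOXB code. HOXB genes gave 84.6% and 85.7% of the HOX reads in senescent cells with doxycycline, 82.0% and 82.1% in senescent cells, 81.4% and 81.8% in proliferating cells with doxycycline and 77.3% and 77.1% in proliferating cells. HOXA gave nearly all of the remainder, and HOXC and HOXD together stayed under 1 CPM in every library. In all, 15 HOX genes reached 1 CPM in at least 1 library and 24 stayed under it, with HOXB13, HOXC4, HOXC12 and HOXD3 at 0 in all 8 libraries.

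**Figure D1:**
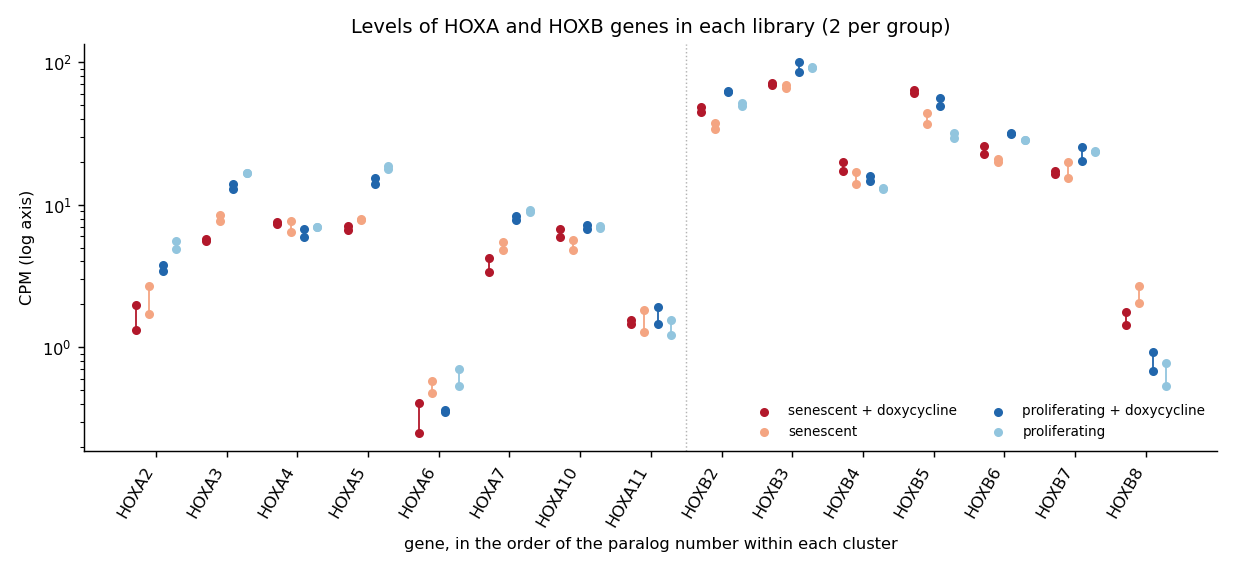
Levels of the HOXA and HOXB genes that passed the count filter and are named in the text, in each library, in CPM on a log axis, by paralog number within each cluster; HOXB9, with libraries at 0, is left out. Points are libraries, joined per group, and colours are the 4 groups; HOXA2, HOXA3, HOXA5 and HOXA7 lie lower in senescent than in proliferating cells, and HOXB8 lies higher.

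Levels of different genes were compared per kb of exon, with lengths from GENCODE v29. In proliferating cells HOXB2 was highest at 21.6 ± 0.743 CPM per kb (mean ± SD, n = 2), followed by HOXB7 at 15.5 ± 0.148 and HOXB5 at 14.9 ± 0.832 CPM per kb, whose libraries overlapped. HOXB3 at 12.3 ± 0.0867 came next, then HOXB6 at 10.9 ± 0.0809 and HOXA5 at 10.7 ± 0.340 CPM per kb, again overlapping. After these the levels dropped to 3.98 ± 0.00339 CPM per kb for HOXA4, 3.88 ± 0.0309 for HOXA3, 3.76 ± 0.0685 for HOXA7 and 3.47 ± 0.0406 for HOXB4. The anterior gene HOXA2 had 2.12 ± 0.210 CPM per kb, and of the posterior genes only HOXA10 (1.89 ± 0.0348) and HOXA11 (0.601 ± 0.102) exceeded 0.5 CPM per kb.

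The order was not the same in the other groups. Per kb of exon, HOXB5 was the highest HOX gene in senescent cells with doxycycline, at 30.6 ± 0.962 CPM per kb against 19.8 ± 1.11 for HOXB2. It was also highest per kb in senescent cells, at 19.8 ± 2.63 against 15.3 ± 1.00 for HOXB2 (n = 2 each). In proliferating cells with doxycycline HOXB5 at 25.7 ± 2.32 and HOXB2 at 26.6 ± 0.255 CPM per kb overlapped. HOXA5, a central gene expressed in developing lung mesenchyme, stood at 4.03 ± 0.163 CPM per kb in senescent cells with doxycycline, 4.63 ± 0.0756 in senescent cells and 8.58 ± 0.657 in proliferating cells with doxycycline.

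Senescence after bleomycin came with lower levels of 9 of the 18 HOX genes tested, most strongly of the anterior and central HOXA genes, and with higher levels of HOXB5 and HOXB8. In cells without doxycycline 11 of the 18 HOX genes passed an adjusted p of 0.05 (edgeR's quasi-likelihood test, Benjamini-Hochberg adjustment over 17155 genes), a share of 61.1% against 59.2% of all genes, so the count is close to the background. The HOX median log2 change was -0.32, against 0.01 over all genes tested. The share that fell was 9 of 18, against 29.4% of all genes, or 37.5% when libraries were scaled by their totals, and 2 rose, against 29.8% of all genes. With doxycycline 12 of the 18 passed, 8 lower and 4 higher, a share of 66.7% against 55.5% of all genes (28.7% lower and 26.8% higher). The HOX median was -0.15 against -0.01. The 4 higher include HOXB9, which passed the count filter only through senescent cells with doxycycline. Of the HOX genes called, 10 were called in both comparisons, all in the same direction. The libraries of the groups did not overlap for 14 of the 18 without doxycycline (80.8% of all genes) and for 13 with it (75.6%).

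HOXA2, which patterns the hindbrain and branchial arches, stood at 2.69 and 1.70 CPM in senescent cells, against 4.86 and 5.59 CPM in proliferating cells. HOXA3, which patterns the pharyngeal region, stood at 8.46 and 7.72 CPM in senescent cells, against 16.6 and 16.8 CPM in proliferating cells. Of the exon length of HOXA3, 15.4% is shared with genes of the other strand and 9.2% with genes of the same strand, so its reads may be mixed with theirs. HOXA5 stood at 7.81 and 7.995 CPM in senescent cells, against 17.8 and 18.6 CPM in proliferating cells. Both senescent libraries were lower for each of these genes, and the groups did not overlap. HOXA5 fell by 1.20 on the log2 scale (SE 0.110, adjusted p = 1.45e-07), HOXA2 by 1.24 (SE 0.241, adjusted p = 0.00036) and HOXA3 by 1.04 (SE 0.111, adjusted p = 8.19e-07).

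HOXA7 stood at 5.43 and 4.77 CPM in senescent cells, against 9.18 and 8.94 CPM in proliferating cells, and fell by 0.83 (SE 0.149, adjusted p = 0.00019). Of its exon length, 62.5% is shared with HOXA-AS3 on the other strand. Whether the counting used strand is not given in the sources used here, and reads of this pair may be mixed. With doxycycline the same 4 HOXA genes fell in senescent cells: HOXA2 stood at 1.99 and 1.31 CPM, against 3.77 and 3.45 CPM in proliferating cells with doxycycline (log2 change -1.12, SE 0.249, adjusted p = 0.00128). HOXA5 stood at 7.08 and 6.68 CPM against 15.4 and 13.9 CPM in the same groups (log2 change -1.09, SE 0.111). The log2 changes of HOXA3 and HOXA7 were -1.24 and -1.08, and all 4 pairs of groups were apart.

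Other HOXA genes did not move in this way. HOXA4, which lies between HOXA3 and HOXA5, stood at 7.73 and 6.48 CPM in senescent cells, against 6.96 and 6.96 CPM in proliferating cells (log2 change 0.03, SE 0.141, adjusted p = 0.868). It was called in no comparison, and 31.0% of its exon length is shared with other genes of the same strand. HOXA11, a posterior gene of limb and uterus, had a log2 change of 0.16 (SE 0.275). The posterior gene HOXA10 stood at 5.63 and 4.80 CPM in senescent cells, against 6.91 and 7.09 CPM in proliferating cells, and fell by 0.42 (SE 0.147, adjusted p = 0.0218). This call was lost without either proliferating replicate and without senescent replicate 2, with an adjusted p of up to 0.142. HOXA6 had a log2 change of -0.23 (SE 0.404) at under 1 CPM.

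The 250 bases before the RefSeq start of 4 HOXA genes (GRCh38.p14, minus strand, 5′ to 3′) show promoters of genes that fell in both senescence comparisons (HOXA2 and HOXA7), in neither (HOXA4) and in cells without doxycycline (HOXA10). They are HOXA2 at chr7:27102684-27102933, HOXA4 at chr7:27130758-27131007, HOXA7 at chr7:27156676-27156925 and, for the more upstream of 2 starts, HOXA10 at chr7:27179862-27180111. Capitals mark matches on either strand to TGATTNAT, a PBX-HOX motif, or to GGAATG, the core motif of TEAD factors.
HOXA2: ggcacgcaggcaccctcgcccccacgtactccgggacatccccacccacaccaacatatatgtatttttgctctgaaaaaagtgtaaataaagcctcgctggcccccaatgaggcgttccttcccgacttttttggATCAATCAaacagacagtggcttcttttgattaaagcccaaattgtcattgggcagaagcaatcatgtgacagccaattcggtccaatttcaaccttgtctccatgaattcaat
HOXA4: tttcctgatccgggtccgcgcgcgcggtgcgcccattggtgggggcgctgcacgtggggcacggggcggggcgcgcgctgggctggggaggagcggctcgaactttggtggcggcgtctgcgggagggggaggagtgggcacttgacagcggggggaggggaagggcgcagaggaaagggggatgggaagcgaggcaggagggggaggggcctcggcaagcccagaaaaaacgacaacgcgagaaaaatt
HOXA7: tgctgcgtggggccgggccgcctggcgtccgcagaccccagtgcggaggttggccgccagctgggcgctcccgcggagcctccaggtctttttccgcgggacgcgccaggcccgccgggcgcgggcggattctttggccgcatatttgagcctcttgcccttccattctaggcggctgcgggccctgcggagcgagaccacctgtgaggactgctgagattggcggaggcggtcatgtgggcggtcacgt
HOXA10: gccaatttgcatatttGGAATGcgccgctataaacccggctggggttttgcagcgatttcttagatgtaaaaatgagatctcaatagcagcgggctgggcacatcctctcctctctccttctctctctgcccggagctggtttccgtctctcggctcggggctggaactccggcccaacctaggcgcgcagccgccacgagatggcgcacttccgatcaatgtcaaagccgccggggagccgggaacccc
The HOXA2 window holds 1 PBX-HOX match (ATNAATCA as read on this strand) and the HOXA10 window 1 TEAD match. The HOXA4 and HOXA7 windows hold neither motif. The GC share was 47.2% in HOXA2, against 70.0% in HOXA4, 70.8% in HOXA7 and 58.8% in HOXA10. Of the 39 HOX genes, 20 had an entry in the RefSeq table. Counting the first listed start of each gene, the PBX-HOX motif occurred in 2 of them (10.0%, against 2.59% of 27305 genes). The TEAD motif occurred in 7 of the 20 (35.0%, against 11.9% of all genes): HOXA10, HOXC4, HOXC5, HOXD4, HOXD8, HOXD10 and HOXD13. HOXC4 and HOXC5 have the same window there, so their match is 1 site counted for both genes. Of the 7 starts listed for HOXA3, 1 that is not the first also holds a TEAD match. Of the 7 genes with a TEAD match at the first start, only HOXA10 was tested, and it was not called with doxycycline in either state. The 20 genes with an entry include 7 that were tested and 13 that were not. HOXB2, HOXB5, HOXB6, HOXB9 and HOXC6, which were called higher with doxycycline, have no entry. However, the annotated gene start of HOXC6 is that of HOXC4 and HOXC5 (chr12:54016888). The window of HOXC4 and HOXC5, with its TEAD match, therefore also lies before the annotated start of HOXC6. Which start these cells used was not tested. The median number of CpG sites was 20.5 in HOX promoters, against 11.0 in those of all genes. A match describes letters in the window and does not show binding.

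Within HOXB, members moved in both directions. HOXB2, which acts in the hindbrain with HOXA2, stood at 37.3 and 34.0 CPM in senescent cells, against 49.3 and 51.7 CPM in proliferating cells (log2 change -0.50, SE 0.0835, adjusted p = 9.09e-05). HOXB3, HOXB6 and HOXB7 fell by 0.44, 0.48 and 0.42 on the log2 scale. HOXB5, the central paralog of HOXA5, went the other way, at 44.1 and 36.5 CPM in senescent cells against 29.3 and 31.7 CPM in proliferating cells (log2 change 0.41, SE 0.101, adjusted p = 0.00265). Scaled by library totals, HOXB5 had an adjusted p of 0.0587. HOXB7 lost its call without senescent replicate 2 (adjusted p = 0.150).

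HOXB8, a central gene expressed in spinal cord and haematopoietic progenitors, had the largest rise among the HOX genes called without doxycycline. It stood at 2.69 and 2.04 CPM in senescent cells, against 0.537 and 0.777 CPM in proliferating cells, and rose 3.59-fold (log2 change 1.84, SE 0.302, adjusted p = 7.53e-05). With doxycycline it stood at 1.43 and 1.76 CPM in senescent cells, against 0.677 and 0.922 CPM in proliferating cells (log2 change 0.98, SE 0.302, adjusted p = 0.0119). The groups did not overlap in either comparison, and the second call was lost without proliferating doxycycline replicate 1 or senescent doxycycline replicate 2 (adjusted p up to 0.0938).

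With doxycycline, all 8 HOXB genes tested were called between senescent and proliferating cells (100%, against 55.5% of all genes). They include HOXB9, which passed the count filter only through senescent cells with doxycycline, so its call is not separate support. HOXB2, HOXB3, HOXB6 and HOXB7 fell by 0.42, 0.39, 0.37 and 0.43 on the log2 scale. HOXB4 rose by 0.30 (SE 0.115, adjusted p = 0.0371) and HOXB5 by 0.25 (SE 0.0981, adjusted p = 0.0388). Both of these calls were lost without either proliferating library grown without doxycycline, without proliferating doxycycline replicate 2 and without senescent doxycycline replicate 1, and that of HOXB5 also without senescent doxycycline replicate 2 (adjusted p up to 0.280 for HOXB4 and 0.246 for HOXB5). HOXB7 lost its call without proliferating doxycycline replicate 1 or senescent doxycycline replicate 2 (adjusted p up to 0.113). The eighth gene, HOXB9, is described with the nearly silent genes.

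**Figure D2:**
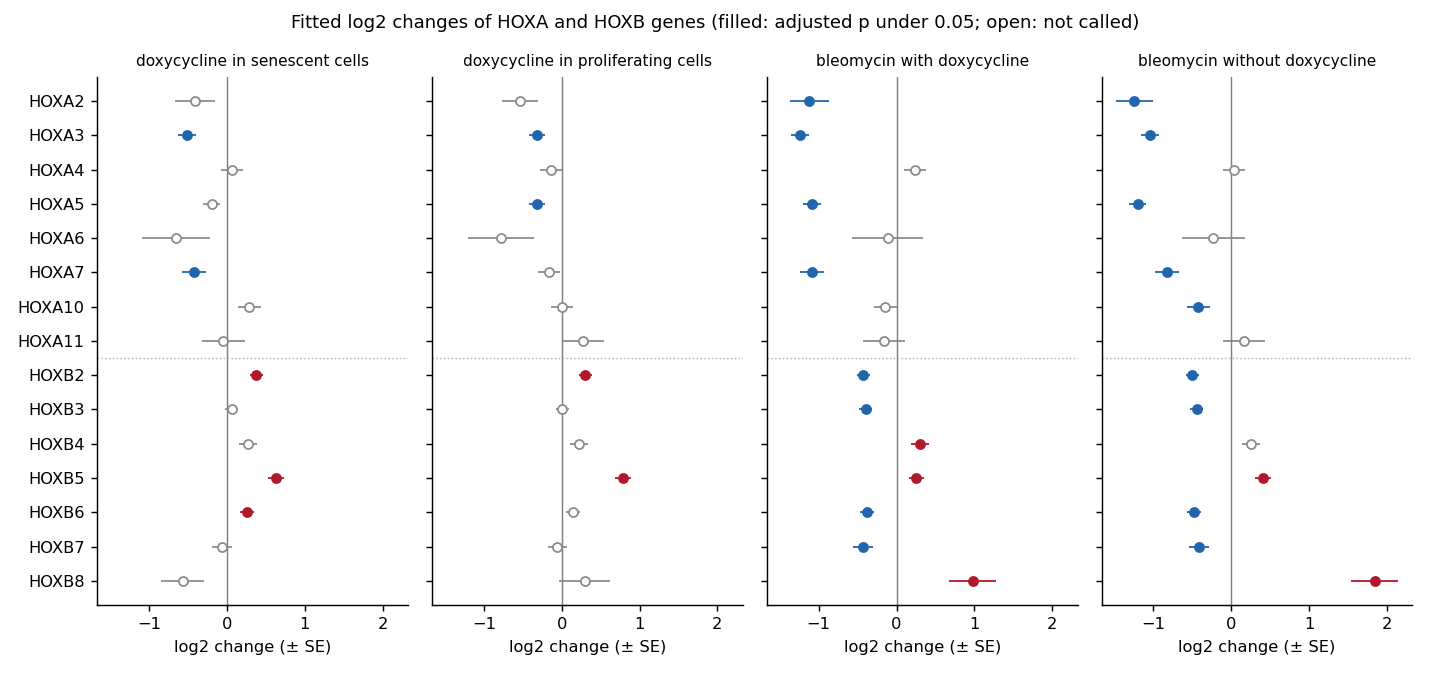
Fitted log2 changes (± SE of the fit, from 2 libraries per group) of the HOXA and HOXB genes named in the text with doxycycline over without it (first 2 panels) and in senescent over proliferating cells (last 2 panels). Filled points have an adjusted p under 0.05 and open points do not, and HOXB9 is left out; HOXA2, HOXA3, HOXA5 and HOXA7 lie left of 0 in both senescence panels, and HOXB5 lies right of 0 in all 4.

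With doxycycline a few HOXB genes were higher and a few HOXA genes lower. In proliferating cells 5 of the 18 HOX genes passed, HOXB2, HOXB5 and HOXC6 higher and HOXA3 and HOXA5 lower, a share of 27.8% against 23.0% of all genes (12.6% higher and 10.4% lower). In senescent cells 8 passed, 6 higher, among them HOXB2, HOXB5, HOXB6, HOXB9 and HOXC6, and 2 lower, HOXA3 and HOXA7, a share of 44.4% against 46.3% of all genes (22.6% higher and 23.8% lower). Both shares are near the background. They include HOXC6 and, in senescent cells, HOXB9, which passed the count filter only through libraries with doxycycline. Scaled by library totals the senescent comparison gave 8 higher and 1 lower HOX genes, against 32.9% and 14.6% of all genes. Groups did not overlap for 14 of the 18 in senescent cells (73.4% of all genes) and for 12 in proliferating cells (61.6%). The HOXB median log2 change was 0.26 in both states and the HOXA median -0.20 in senescent and -0.17 in proliferating cells, against 0.00 over all genes in each.

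HOXB5 rose most among the well-expressed HOX genes. It stood at 63.9 and 61.1 CPM in senescent cells with doxycycline, against 44.1 and 36.5 CPM without it, a 1.55-fold rise (log2 change 0.63, SE 0.0992, adjusted p = 9.32e-05). Proliferating cells had 55.8 and 49.2 CPM with doxycycline, against 29.3 and 31.7 CPM without it, a 1.72-fold rise (log2 change 0.78, SE 0.100, adjusted p = 3.31e-05). All libraries with doxycycline were above those without it, and both calls held in the 16 alternatives of scaling, tool, filter and libraries.

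HOXB2 stood at 44.5 and 48.2 CPM in senescent cells with doxycycline, against 37.3 and 34.0 CPM without it (log2 change 0.38, SE 0.0838, adjusted p = 0.00181). Levels in proliferating cells were 61.8 and 62.6 CPM with doxycycline, against 49.3 and 51.7 CPM without it (log2 change 0.30, SE 0.0820, adjusted p = 0.0146). The groups were apart in both states. HOXB6 rose by 0.25 in senescent cells (SE 0.0907, adjusted p = 0.0324), and in proliferating cells its log2 change was 0.15 (adjusted p = 0.257). HOXB4, at 20.1 and 17.3 CPM with doxycycline against 17.0 and 13.95 CPM without it in senescent cells, had a log2 change of 0.27 (adjusted p = 0.0676). HOXB3 and HOXB7 had log2 changes from -0.07 to 0.06 in both states.

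HOXA3 stood at 5.78 and 5.54 CPM in senescent cells with doxycycline, against 8.46 and 7.72 CPM without it (log2 change -0.52, SE 0.118, adjusted p = 0.00217). Proliferating cells had 12.9 and 13.9 CPM with doxycycline, against 16.6 and 16.8 CPM without it (log2 change -0.32, SE 0.107, adjusted p = 0.0424). The libraries with doxycycline were lower in both states. HOXA5 fell by 0.31 in proliferating cells (SE 0.105, adjusted p = 0.0412), while in senescent cells its log2 change was -0.20 (adjusted p = 0.171). HOXA7 fell by 0.42 in senescent cells (SE 0.156, edgeR's adjusted p = 0.0378). This call held in 6 of 16 alternatives. It was lost with library totals, DESeq2, limma-voom, either other filter and only the 4 libraries compared, among others.

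Several of these calls rested on single libraries, and some also on the tool or filter. With DESeq2, and also with no filter, HOXA3 and HOXA5 lost their calls in proliferating cells. HOXB6 and HOXA7 lost theirs in senescent cells in the same 2 settings. Without either proliferating library grown without doxycycline, HOXB5 was the only HOX gene called in proliferating cells. There were 3 calls without proliferating doxycycline replicate 2, where HOXA5 and HOXC6 were lost. Another 3 were left without either senescent doxycycline library, which share the fit, and there HOXA3 and HOXA5 were lost. HOXA3 lost its call in proliferating cells also without proliferating doxycycline replicate 1, and over the alternatives its adjusted p reached 0.244, that of HOXA5 0.287 and that of HOXB2 0.181. In senescent cells 5 calls were left without either proliferating library grown without doxycycline or without senescent doxycycline replicate 1. HOXB6 lost its call also without either senescent library grown without doxycycline, and HOXA7 without replicate 1 of those or senescent doxycycline replicate 2, with adjusted p up to 0.221 for HOXB6 and 0.244 for HOXA7.

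**Figure D3:**
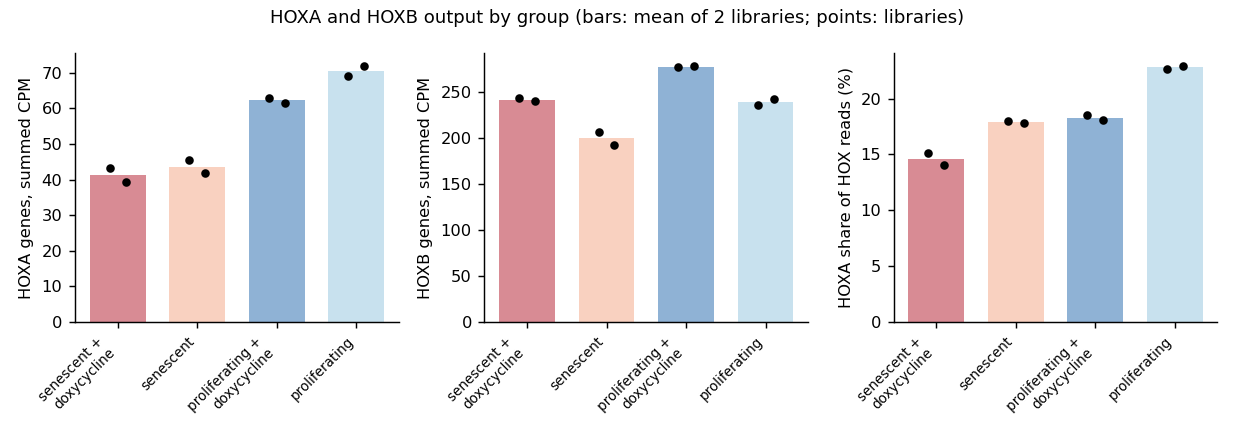
Summed level of the 11 HOXA genes and of the 10 HOXB genes in CPM, and the HOXA share of all HOX reads in percent, in the 4 groups. Bars are means of 2 libraries and points are libraries; the HOXA share is lowest in senescent cells with doxycycline (15.1% and 14.02%) and highest in proliferating cells (22.7% and 22.9%).

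Summed over the cluster, HOXB stood at 243 and 240 CPM in senescent cells with doxycycline, against 207 and 192 CPM without it. The HOXB sum in proliferating cells was 277 and 278 CPM with doxycycline, against 236 and 242 CPM without it. The HOXA sum was 43.3 and 39.2 CPM against 45.5 and 41.7 CPM in senescent cells, where the groups overlapped, and 63.0 and 61.5 CPM against 69.1 and 71.9 CPM in proliferating cells, where they did not, with doxycycline first in each pair. The HOXA share of HOX reads does not depend on library scaling. It was 15.1% and 14.02% in senescent cells with doxycycline and 18.0% and 17.8% in senescent cells. Among proliferating cells it was 18.5% and 18.1% with doxycycline and 22.7% and 22.9% without it. No test of a sum or share was made, since with 2 libraries per group the exact permutation test cannot go below p = 0.333.

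A few nearly silent genes had reads mainly in cells with doxycycline. HOXB9 and HOXC6 passed the count filter only through libraries with doxycycline, where they are high. Their adjusted p-values are therefore not separate support for a rise. HOXB9, a gene of thoracic levels, had 15 and 26 reads in senescent cells with doxycycline, against 1 and 2 reads without it, a ratio of 12.5 after scaling (95% counting interval 3.99 to 63.1, edgeR's adjusted p = 0.00259). In proliferating cells it had 1 and 0 reads with doxycycline and none without it, so 41 reads in senescent cells with doxycycline stood against 1 in proliferating cells with doxycycline, a ratio of 41.1 (6.97 to 1662, adjusted p = 0.000485). The first call was lost without senescent doxycycline replicate 2 (adjusted p = 0.0548).

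HOXC6, a central HOXC gene, had 22 and 12 reads in senescent cells with doxycycline, against 2 and 0 reads without it, a ratio of 15.5 (95% counting interval 3.98 to 134, adjusted p = 0.00451). In proliferating cells it had 4 and 14 reads with doxycycline, against none without it (edgeR's adjusted p = 0.0099). The ratio was 6.45 with 3 counts over the group without reads as the floor. The first call was lost without senescent doxycycline replicate 1 (adjusted p = 0.0615), and the second without either proliferating replicate or without proliferating doxycycline replicate 2 (up to 0.0837). All libraries with doxycycline held more reads than those without it in the same state. Of its exon length 15.7% is shared with HOXC4, HOXC5 and HOXC9 on the same strand. Intervals cover counting error only, and floors cover only that of the group with 0 reads, with the other count taken as exact.

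HOXC8 had too few reads to be tested, 6 and 7 in senescent cells with doxycycline against 0 and 1 without it (ratio 11.9, interval 1.79 to 505). Proliferating cells held 2 and 0 reads with doxycycline and none without it. The 9 HOXC genes together had 54 reads in senescent cells with doxycycline against 3 without it (ratio 16.5, interval 5.34 to 82.3). In proliferating cells they had 21 reads with doxycycline against 0 without it, a ratio of 7.53 with the floor of 3 counts. The 0 reads allow up to 0.0371 CPM over that group. The 9 HOXD genes had 5 and 2 reads in senescent and 4 and 0 reads in proliferating cells, with doxycycline first, and the ratio in senescent cells was 2.29 (interval 0.374 to 24.0). Even in senescent cells with doxycycline the HOXC sum was 0.764 and 0.671 CPM, far below the HOXA and HOXB sums.

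**Figure D4:**
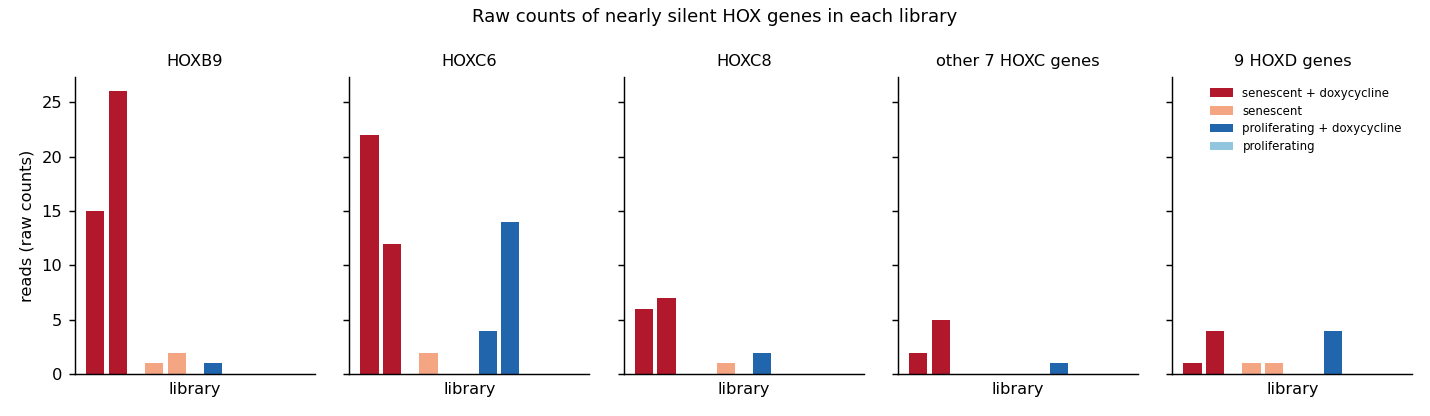
Raw reads per library of HOXB9, HOXC6, HOXC8, the other 7 HOXC genes and the 9 HOXD genes, with 2 bars per group in replicate order and colours for the 4 groups. Senescent cells with doxycycline hold 41 reads of HOXB9, 34 of HOXC6 and 13 of HOXC8, and proliferating cells without doxycycline hold none in any panel.

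Genes of other cell types moved with doxycycline as well. The 5 epithelial markers summed to 2.06 to 2.21 CPM in senescent cells with doxycycline, 0.840 to 0.942 CPM in senescent cells, 1.06 to 1.21 CPM in proliferating cells with doxycycline and 0.777 to 0.976 CPM in proliferating cells. Within this sum CDH1, the epithelial cadherin, had 82 reads against 10 in senescent cells and 24 against 0 in proliferating cells, with doxycycline first, while NKX2-1 had none. The fibroblast sum was 21617 to 26294 CPM in senescent cells with doxycycline, 34355 to 36757 CPM in senescent cells, 20577 to 21219 CPM in proliferating cells with doxycycline and 29525 to 29816 CPM in proliferating cells. The endothelial sum, nearly all of it TEK, was 97.1 to 107 CPM, 135 to 155 CPM, 45.8 to 50.7 CPM and 69.1 to 70.6 CPM in the same order of groups. The 5 leukocyte markers stayed under 1 CPM in every library. The neural and glial markers summed to 0.922 to 1.52 CPM over all libraries. The part of these genes in the HOX results was not tested.

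No HOX gene had a doxycycline effect that differed between senescent and proliferating cells in the test of that difference. Of the 18 tested, 0 passed, against 19.9% of all genes (8.08% with a higher and 11.8% with a lower value in senescent cells), and 0 had an unadjusted p under 0.05 in edgeR, DESeq2 or limma-voom. The smallest p in edgeR's quasi-likelihood test was that of HOXB8, with a doxycycline log2 change of -0.57 in senescent and 0.29 in proliferating cells, a difference of -0.86 (SE 0.428, adjusted p = 0.176). For HOXB5 the difference was -0.15 (SE 0.140) and for HOXA3 -0.20 (SE 0.159). These errors do not show that the effects were alike. Fold changes of HOXB9 and HOXC6 rest on groups with 0 to 3 reads, and their differences have an SE of 3.43 and 2.06. The sign of the doxycycline change was the same in both states for 15 of the 18 HOX genes (83.3%, against 66.0% of all genes). These 15 include HOXB9 and HOXC6, which passed the count filter only through libraries with doxycycline, so their shared sign is not separate support. In proliferating cells the sign of HOXB9 rests on 1 read against 0. The sign of the senescence change was the same with and without doxycycline for 17 of 18 (94.4%, against 77.6%), with HOXB9 and HOXC6 again among them.

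Among the TALE cofactors of HOX proteins, MEIS1 fell with doxycycline in both states. With doxycycline 1 of 8 tested members rose and 2 fell in senescent cells (37.5%, against 46.3% of all genes), and 1 rose and 3 fell in proliferating cells (50.0%, against 23.0%). MEIS1 stood at 21.5 and 20.6 CPM in senescent cells with doxycycline, against 36.2 and 33.6 CPM without it (log2 change -0.73, SE 0.0841, adjusted p = 4.59e-06), and its log2 change was -0.68 in proliferating cells. MEIS3 fell by 0.52 in proliferating cells.

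In senescent against proliferating cells 5 of the 8 cofactors fell without doxycycline, and 4 fell and 1 rose with it. The share called was 62.5% each time, near the 59.2% and 55.5% of all genes. PBX3 stood at 11.7 and 12.4 CPM in senescent cells, against 21.0 and 21.9 CPM in proliferating cells (log2 change -0.83, SE 0.0945, adjusted p = 1.71e-06). MEIS1 fell by 0.78 without doxycycline and by 0.83 with it, and the groups were apart each time. The PBX3 change with doxycycline was 0.33 in senescent cells (adjusted p = 0.0116, and 0.0812 at most without senescent replicate 1 or senescent doxycycline replicate 2) and 0.44 in proliferating cells (adjusted p = 0.00212, and 0.0507 without proliferating replicate 1).

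**Figure D5:**
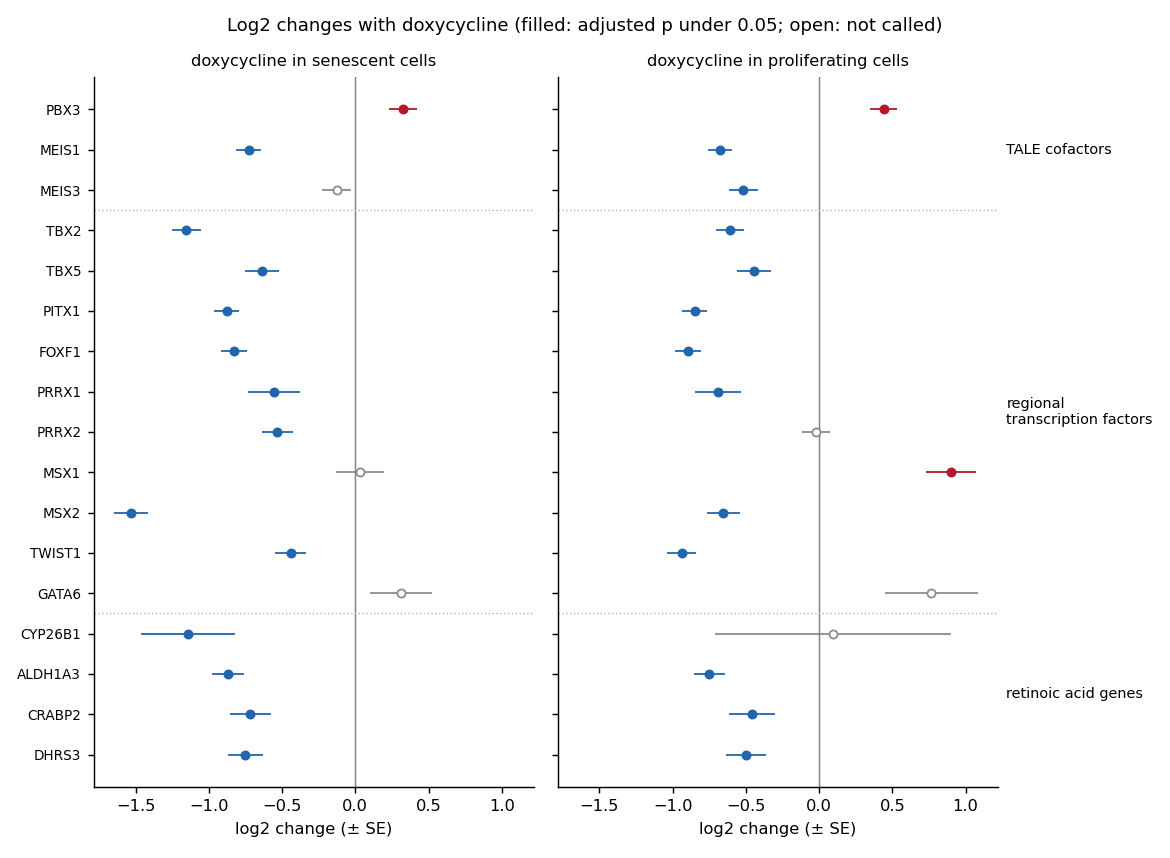
Fitted log2 changes (± SE of the fit, from 2 libraries per group) with doxycycline over without it of the TALE cofactors, regional transcription factors and retinoic acid genes named in the text, in senescent cells (left) and proliferating cells (right). Filled points have an adjusted p under 0.05 and open points do not, and LHX9, at 0 in senescent cells without doxycycline, is left out; MEIS1, PITX1, FOXF1, MSX2 and ALDH1A3 lie left of 0 in both panels.

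Of 14 Polycomb genes tested, 9 fell and 3 rose in senescent cells without doxycycline (85.7%, against 59.2% of all genes, 29.4% lower). With doxycycline 7 fell and 3 rose (71.4%, against 55.5% of all genes, 28.7% lower). EZH2, the H3K27 methyltransferase of Polycomb complex PRC2, stood at 4.90 and 7.60 CPM in senescent cells, against 45.5 and 45.4 CPM in proliferating cells (log2 change -2.87, SE 0.144, adjusted p = 3.13e-10). CBX2, a reader of H3K27 methylation, fell by 2.69 and EED, a PRC2 subunit, by 0.60. With doxycycline the log2 changes of EZH2 and CBX2 were -2.27 and -2.82. With doxycycline over without it 3 of 14 rose and 2 fell in senescent cells, and 1 rose and 2 fell in proliferating cells (35.7% and 21.4%, below the 46.3% and 23.0% of all genes). RNF2, a ubiquitin ligase of complex PRC1, stood at 30.7 and 29.9 CPM in senescent cells with doxycycline, against 20.9 and 19.7 CPM without it (log2 change 0.58, SE 0.0871, adjusted p = 6.40e-05).

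Of 9 Trithorax and H3K27 demethylase genes, 2 rose and 3 fell in senescent cells without doxycycline, and 2 rose and 4 fell with it. These shares of 55.6% and 66.7% are set against 59.2% and 55.5% of all genes, so the counts are near the background. KDM6B, an H3K27 demethylase, stood at 27.1 and 27.6 CPM in senescent cells, against 13.8 and 14.2 CPM in proliferating cells (log2 change 0.97, SE 0.0920, adjusted p = 2.27e-07). WDR5, a subunit of the MLL complexes, fell by 0.83. With doxycycline over without it KDM6B fell by 0.53 in senescent cells, where 1 of the 9 rose and 3 fell (44.4%, against 46.3% of all genes), and in proliferating cells 1 fell and none rose (11.1%, against 23.0%).

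In senescent cells without doxycycline 5 of 9 retinoic acid genes rose and 2 fell, against 29.8% and 29.4% of all genes. With doxycycline 3 rose and 2 fell, against 26.8% and 28.7%, and the total of 55.6% is near the 55.5% of all genes. CYP26B1, which breaks down retinoic acid, stood at 2.77 and 2.68 CPM in senescent cells, against 0.0244 and 0.100 CPM in proliferating cells (log2 change 5.39, SE 0.478, adjusted p = 1.07e-07). DHRS3, a retinal reductase, and CRABP2, a retinoic acid carrier, rose by 1.90 and 1.71. With doxycycline over without it, 6 of 9 fell in senescent cells and 4 of 9 in proliferating cells, and none rose (66.7% and 44.4%, against 23.8% and 10.4% of all genes lower). ALDH1A3, which makes retinoic acid, stood at 14.6 and 11.9 CPM in senescent cells with doxycycline, against 24.4 and 24.0 CPM without it (log2 change -0.87, SE 0.108, adjusted p = 9.68e-06). In proliferating cells it fell by 0.75.

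Most other transcription factors of regional identity fell with doxycycline. Of 17 tested, 4 rose and 11 fell in senescent cells (88.2%) and 3 rose and 9 fell in proliferating cells (70.6%), against 46.3% and 23.0% of all genes. FOXF1, a factor of lung mesenchyme, stood at 151 and 150 CPM in senescent cells with doxycycline, against 292 and 243 CPM without it. Levels in proliferating cells were 172 and 177 CPM with doxycycline, against 317 and 331 CPM without it. The groups were apart in both states, with log2 changes of -0.83 (SE 0.0891) and -0.89 (SE 0.0890). PITX1, a factor of hindlimb identity, had log2 changes of -0.88 and -0.85, TBX2 of -1.15 and -0.61, and MSX2 of -1.53 and -0.65, in senescent and then proliferating cells. TWIST1 fell by 0.94 in proliferating cells. MSX1 rose by 0.90 in proliferating cells.

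The limb and lung factors TBX5 and TBX4 differed in level. TBX5, which patterns lung and forelimb, stood at 11.3 to 20.9 CPM in all libraries, while TBX4, its close relative, also known from lung mesenchyme, stayed under 1 CPM. In senescent against proliferating cells 8 of the 17 factors fell and 6 rose without doxycycline, and 7 fell and 4 rose with it (82.4% and 64.7%, against 59.2% and 55.5% of all genes). PRRX2, a mesenchymal homeobox gene, stood at 14.7 and 12.4 CPM in senescent cells, against 42.3 and 41.1 CPM in proliferating cells (log2 change -1.62, SE 0.0994, adjusted p = 1.41e-09), and PRRX1 fell by 1.61. GATA6, an endoderm and mesenchyme factor, stood at 3.14 and 3.50 CPM in senescent cells, against 0.317 and 0.276 CPM in proliferating cells (log2 change 3.47, SE 0.272, adjusted p = 2.54e-08). With doxycycline TBX2 fell by 2.08 in senescent against proliferating cells. LHX9 had 29 reads in senescent cells with doxycycline against 0 without it, a ratio of 8.84 with a floor of 3 counts over the group. It had 15 reads against 31 in proliferating cells.

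Of the noncoding transcripts of the clusters, HOXA-AS3 stood at 4.48 and 4.01 CPM in senescent cells, against 8.93 and 8.29 CPM in proliferating cells (log2 change -1.02, SE 0.150, adjusted p = 2.66e-05), and fell by 1.07 with doxycycline. HOXA-AS2 fell by 1.41 in senescent cells without doxycycline. HOXB-AS3, which lies across HOXB5 and HOXB6, stood at 29.03 and 28.4 CPM in senescent cells with doxycycline, against 20.9 and 21.1 CPM without it (log2 change 0.45, SE 0.0913, adjusted p = 0.000862), and in proliferating cells its log2 change was 0.52. HOTAIRM1, an antisense transcript of the HOXA cluster, stood at 20.2 and 15.5 CPM in senescent cells with doxycycline, against 8.63 and 6.93 CPM without it (log2 change 1.20, SE 0.157, adjusted p = 2.25e-05). Of 8 noncoding transcripts tested, 2 rose and none fell with doxycycline in senescent cells (25.0%, against 46.3% of all genes), and 1 rose and 1 fell in proliferating cells (25.0%, against 23.0%). In senescent against proliferating cells 3 fell and none rose without doxycycline (37.5%, against 59.2%), and 3 fell and 1 rose with it (50.0%, against 55.5%). HOTAIR, of the HOXC cluster, had no reads.

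Of 11 protein-coding genes tested beside the clusters, 1 changed with doxycycline in senescent cells and 3 in proliferating cells (9.09% and 27.3%, against 46.3% and 23.0% of all genes). With senescence 6 changed without doxycycline and 7 with it (54.5% and 63.6%, against 59.2% and 55.5%). CBX5, near HOXC, stood at 83.8 and 90.4 CPM in senescent cells, against 265 and 261 CPM in proliferating cells (log2 change -1.59, SE 0.0785). CALCOCO1, also near HOXC, rose by 1.73. With doxycycline SMUG1, another HOXC neighbour, rose by 0.74 in senescent cells.

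The CDX genes, which activate HOX clusters in the embryo, and the ParaHox genes gave few reads. CDX2, CDX4 and GSX1 were at 0 in all libraries. Of the 6 genes GSX2 was tested, and it passed the count filter only through senescent cells with doxycycline. It had 31 reads there, against 5 in senescent cells without doxycycline. This ratio was 5.67 (95% counting interval 2.19 to 18.7, adjusted p = 0.0160). The call was lost without any 1 of the 4 senescent libraries, with an adjusted p of up to 0.115.

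Across the 8 libraries, the genes whose log2 CPM was most like that of HOXC6 were RERGL, RIPOR1 and FAM200B (Pearson r of 0.983, 0.981 and 0.978). Those most like HOXB8, the HOX gene with the largest senescence change among those called without doxycycline, were GGT1, CIDECP1 and LINC02458 (0.993, 0.991 and 0.990). These correlations describe 8 libraries from 4 groups that share their treatments, and RERGL had under 0.5 CPM in every library.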

How the data were processed

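The values are read counts per gene as the authors deposited them, in 8 columns, 1 per library; no other unit was used. Per the labels' protocols, total RNA went into stranded TruSeq mRNA libraries. featureCounts 1.6.3, HISAT2 2.1.0, Trimmomatic 0.36 and build hg38 appear in the submitters' processing notes. Which annotation and strand setting was used is not given in the sources used here; genes that overlap others are uncertain.

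Genes passing filterByExpr (17155) were scaled with TMM factors and fitted in R 4.3.3 with edgeR 4.0.16 (robust quasi-likelihood, 4 groups, 4 residual degrees of freedom). Contrasts were tested two-sided, with Benjamini-Hochberg over the genes tested and a threshold of 0.05: doxycycline in each state, senescence with and without doxycycline, and the difference of the doxycycline effects. limma 3.58.1, DESeq2 1.42.0, other scalings and filters, a replicate block and each library left out were alternatives. Matplotlib 3.10.9 in Python 3.11.15 drew the plots. Library totals were 33627708 to 39692162 counts. Fold changes against groups with 0 reads use a floor of 3 counts over the group, and groups with 1 to 3 reads get a ratio with a 95% exact counting interval. Exon lengths and overlaps come from GENCODE v29, promoters from RefSeq (GRCh38.p14). The fits were tested on simulated data.

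Replicate numbers follow the titles. The labels do not state that these numbers pair libraries. Residual correlations of the 12 pairs of same-numbered libraries ran from -0.0121 to 0.159. With 2 libraries per group these values cannot decide whether libraries shared a culture or batch. Replicates correlated at 0.990 to 0.993 (log2 CPM) and groups at 0.920 to 0.977. The HOX genes and the gene lists were chosen with earlier results of these data known. From each list up to 4 called genes with the largest change could be named per contrast. The text names those whose call held in every alternative, together with a few others with their limits, and counts the rest. Some genes of these lists are not reported here by name; counts, sums and medians include them.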

Additional observations from a re-analysis of the deposited data

Results flagged for a closer look

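Some list genes were called in the test of the difference of the doxycycline effect between senescent and proliferating cells (edgeR's quasi-likelihood test, adjusted p under 0.05). From each list, cell type markers left out, up to 4 called genes with the largest difference were taken. This gave 14 genes, all called by that choice, so their number is not a result. Over all genes 19.9% were called. Of the 17 regional transcription factors tested 7 were called, so the limit of 4 leaves some out. Values are the log2 change in senescent cells minus that in proliferating cells. The difference was 1.05 for HOTAIRM1 (1.20 in senescent and 0.14 in proliferating cells, adjusted p = 0.00404), -0.88 for MSX2 (-1.53 and -0.65, adjusted p = 0.0015) and -0.57 for CALCOCO1 (-0.12 and 0.46, adjusted p = 0.00268). These 3 held in the 15 alternatives run. That of LHX9 (7.80) held in the 13 alternatives that gave it a value, but it rests on 0 reads in senescent cells without doxycycline and its size is no bound.

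The other 10 lost their call when single libraries were left out. The difference of EZH2 (0.60) was lost without any library but senescent replicate 2, and that of RARG (0.39) without any but proliferating doxycycline replicate 1. RNF2 (0.42) lost its call without either proliferating library, senescent replicate 2 or either senescent doxycycline library. MSX1 (-0.87) and SKAP2 (0.36) lost theirs without either proliferating library, senescent replicate 1 or either senescent doxycycline library. TBX2 (-0.54) did so without proliferating replicate 1 or senescent doxycycline replicate 2, and CBX5 (0.40) without either proliferating library, senescent replicate 1 or senescent doxycycline replicate 2. HOXA-AS2 (1.07) lost its call without any library but replicate 1 of either doxycycline group, and SMUG1 (0.55) without any but proliferating doxycycline replicate 1 and senescent replicate 1. GSX2 (4.67), with 0 to 18 reads per library, kept its call only without replicate 1 of either proliferating group. Over these 10 the highest adjusted p ran from 0.0787 for MSX1 to 0.475 for GSX2.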

How the results depend on the processing

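The HOX genes called with doxycycline numbered 8 in senescent and 5 in proliferating cells. DESeq2 gave 5 and 2 and no filter on low counts 5 and 3, in the same order. With each library left out in turn the counts ran from 5 to 8 and from 1 to 5. The senescence counts, 12 with and 11 without doxycycline, ran from 9 to 12 and from 10 to 11. The test of the difference gave 0 in each alternative, with up to 2 HOX genes at an unadjusted p under 0.05 (2 with library totals). With the replicate number as a block the counts were 9 and 5 with doxycycline, 12 and 11 with senescence and 0 for the difference, in the order above. The labels do not state that these numbers pair the libraries. Of 36 calls of HOX genes 20 held in all alternatives and none reversed; of 114 of list genes 77 held and none reversed. The cause of the losses was not tested.

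With library totals the median log2 change of all genes was 0.165 for doxycycline in senescent cells, -0.157 for senescence without doxycycline and 0.150 for the difference of doxycycline effects, where TMM gave 0.00, 0.01 and -0.03, so small HOX changes there depend on scaling. DESeq2 gave no adjusted p for HOXC6 in proliferating cells. Depth limits HOXB9, HOXC6 and the untested genes, which had at most 26 reads in a library. Where a group keeps 1 library, that library is assumed to vary like the others.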
